A study of Caenorhabditis elegans with 48 samples.

Results

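The 10 genes described here are the cuticle collagens of Caenorhabditis elegans named for the Dumpy, Roller and Squat mutants: dpy-2 (T14B4.6), dpy-3 (EGAP7.1), dpy-5 (F27C1.8), dpy-7 (F46C8.6), dpy-8 (C31H2.2), dpy-10 (T14B4.7), dpy-13 (F30B5.1), dpy-17 (F54D8.1), sqt-3 (F23H12.4) and rol-6 (T01B7.7). They were chosen by sequence name, not by a rule on their measured values, although earlier results of these data were known. They are 10 of the 44968 genes in the count tables. mRNA-seq was done on whole animals of the wild type strain N2, whose embryos were isolated with hypochlorite and kept in S-basal, a buffer without food, so that the larvae stopped developing soon after hatching, in the state called L1 arrest. The groups are 12 time points relative to the nominal hatch, namely -2 and 0 h, then 2, 4 and 6 h, then 9 and 12 h, then 24, 48 and 96 h, and last 192 and 288 h, with 4 libraries each, numbered 1, 5, 6 and 8. The labels call the animals L1 larvae at every time point, although -2 h precedes the nominal hatch, and the share hatched at each time was not analysed here. All of them share the genotype, the medium and the absence of food, so there is no fed control and time in buffer cannot be told apart from age. Per the study's methods, each replicate was a single culture followed through all time points, except for 1 of the 4, which drew on several cultures. Which of the numbers 1, 5, 6 and 8 that replicate has is not given.

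The cuticle is a collagen-rich extracellular coat secreted by the epidermis, built anew for each larval stage and shed at each molt, and the coat of the L1 larva is made in the embryo before hatching. Cuticle collagens are transcribed in bursts around the building of each coat, trimmed by proteases, crosslinked and laid down in circumferential bands called annuli, separated by furrows. Mutants in these genes are short and fat, or roll about their long axis, since the collagens set the shape of the body. DPY-2, DPY-3, DPY-7, DPY-8 and DPY-10 are the 5 annular furrow collagens here. The other 5 include DPY-13, found in the annuli, DPY-5, ROL-6, best known from its dominant roller allele used to mark transgenic animals, and the pair DPY-17 and SQT-3, which act together and depend on the astacin protease DPY-31.

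Per the current annotation (WBcel235), dpy-2, dpy-10 and rol-6 are on chromosome II, dpy-3, dpy-7 and dpy-8 on X, and dpy-5, dpy-17, dpy-13 and sqt-3 on I, III, IV and V. Exons of dpy-8 overlap a gene on the opposite strand (C31H2.14), those of sqt-3 a noncoding RNA on the opposite strand (F23H12.13), and those of dpy-10 a gene on the same strand (T14B4.19). The strand setting of the read counting is not given in the sources used here, so reads of such partners could have been counted together or lost.

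Libraries held 10164115 to 15962842 counts on genes. Levels are given as scaled CPM, meaning counts relative to the library total (CPM) after edgeR's TMM scaling, and are relative to the rest of the RNA in each library. In whole animals, fewer epidermal cells and less RNA per cell cannot be told apart. A library at -2 h (replicate 6) and one at 24 h (replicate 8) had 46.4% and 27.4% of gene counts on ribosomal RNA, against at most 9.31% in the other libraries. Calls of the members that rest on these are given with and without them. The 4 epidermal markers lin-26, elt-1, elt-3 and che-14 were detected at every time point. Their summed level was 203 ± 45.5 scaled CPM at -2 h, 137 ± 16.6 at 0 h, 104.4 ± 7.23 at 12 h and 72.3 ± 9.24 at 288 h (SD, n = 4 each), though they did not move as one. At 0 h against -2 h che-14 fell by 2.31 on the log2 scale and lin-26 by 0.91, elt-3 rose by 0.51, and elt-1 had -0.06 and did not pass. The 3 markers of the seam, a row of specialised epidermal cells, that could be matched (elt-6, ceh-16 and grd-10) summed to 154 ± 35.1 scaled CPM at -2 h, 272 ± 33.7 at 0 h and 45.7 ± 6.50 at 12 h (SD, n = 4 each). That course was the course of grd-10, which averaged 115, 239 and 18.5 scaled CPM at these times. elt-6 averaged 33.2, 27.6 and 22.9, and ceh-16 5.43, 5.05 and 4.35. Neither of these passed at 0 h against -2 h or at 12 h against 0 h. The part of epidermal content in the results was not tested.

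All 10 collagens passed the filter of more than 1 CPM in at least 4 libraries, which 16987 genes passed. rol-6 did so in only 7 of 48 libraries, while dpy-17 and sqt-3 were above 1 CPM in all 48. Over the 12 time points, 7 of the 10 changed in edgeR's likelihood ratio test, namely dpy-2, dpy-3, dpy-5, dpy-7, dpy-10, dpy-17 and sqt-3, while 84.9% of all genes tested did. dpy-8, dpy-13 and rol-6 did not pass (adjusted p = 0.573, 0.495 and 0.138). With the replicate number as a block, dpy-13 and rol-6 also passed, giving 9, while the 84.9% is from the fit without the block. The mean level was highest at -2 h for 7 members, at 9 h for dpy-13, at 48 h for dpy-5 and at 96 h for rol-6.

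Together the 10 genes took 0.480 ± 0.136% of gene counts at -2 h, 0.114 ± 0.0324% at 0 h, 0.00954 ± 0.00474% at 12 h and 0.00230 ± 0.00148% at 192 h (SD, n = 4 each). What made up that share differed between times. dpy-17 and sqt-3 were 18.3 ± 9.29% of it at 48 h and 95.6 ± 1.8% at -2 h, and dpy-5 was 60.9 ± 18.2% of it at 48 h and 0.0252 ± 0.0127% at -2 h.

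**Figure D1:**
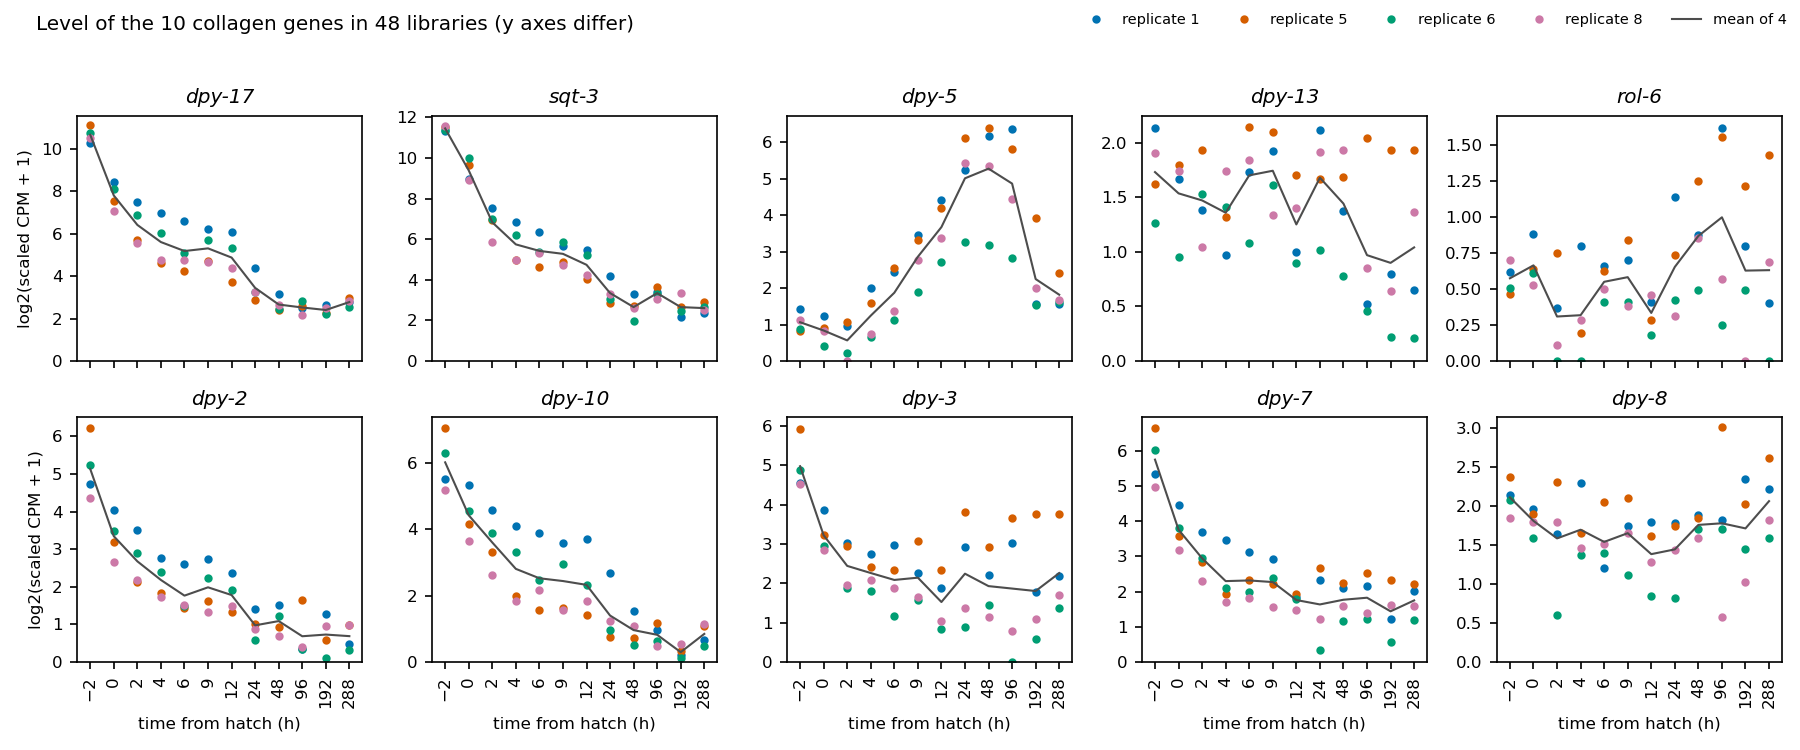
Level of each of the 10 collagen genes at the 12 time points, as log2(scaled CPM + 1) against time from the nominal hatch in hours (evenly spaced), with 1 point per library coloured by replicate number and a line through the mean of 4. dpy-17, sqt-3, dpy-2, dpy-10, dpy-3 and dpy-7 are highest at -2 h, dpy-5 is highest at 48 h, and the y axes of dpy-8, dpy-13 and rol-6 span low levels only.

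sqt-3 and dpy-17, the pair that needs DPY-31, were the most abundant of the 10 per length of transcript before and at the hatch. At -2 h they reached 1972 and 1484 scaled CPM per kb of exon, against 50.8 for dpy-7, the next highest. sqt-3 had 2568, 2936, 2651 and 3062 scaled CPM in replicates 1, 5, 6 and 8 at -2 h. At 0 h the values were 495, 813, 1016 and 485, at 2 h 186, 121, 125 and 56.9, at 12 h 43.6, 15.3, 36.4 and 17.5, and at 24 h 17.1, 6.28, 7.33 and 8.70. The times -2, 0, 2 and 12 h do not overlap with one another, while 12 and 24 h do, and each replicate was lower at each later time of these 5. By 48 h the mean was 5.65 ± 2.51 scaled CPM (SD, n = 4), which is 0.201% of the mean at -2 h, and it stayed between 5.13 and 9.26 at 96 h and after.

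dpy-17 had 1253, 2189, 1718 and 1437 scaled CPM in replicates 1, 5, 6 and 8 at -2 h, then 344, 187, 278 and 134 at 0 h, 182, 51.3, 116 and 46.1 at 2 h, 66.6, 12.3, 38.8 and 19.6 at 12 h and 20.0, 6.28, 8.6 and 8.58 at 24 h. The 4 libraries at -2 h lie above all those at 0 h, but the neighbouring times from 0 to 24 h listed here overlap, and replicate 1 was the highest of the 4 at all 7 time points in that span. At 48 h the mean was 5.47 ± 1.65 scaled CPM (SD, n = 4), 302-fold below the mean at -2 h. From 48 to 288 h the means lay between 4.33 and 5.89 scaled CPM, with 43 or more counts in each library, so a residual level was counted above the floor of 3 counts.

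The fall was tested between adjacent time points with edgeR's quasi-likelihood test. Of the 110 tests of a member over the 11 steps, 10 passed, all of them falls. At 0 h against -2 h, 6 members fell: dpy-17 with a log2 fold change of -2.81 (SE 0.48, adjusted p = 1.89e-05), sqt-3 with -2.00 (SE 0.37, adjusted p = 6.44e-05), and the furrow collagens dpy-7 (-2.14), dpy-2 (-1.99), dpy-3 (-1.94) and dpy-10 (-1.68). Each was lower at 0 h in 4 of 4 replicates, and 12.3% of all genes tested fell in that step. The calls of dpy-3 and dpy-10 were the least stable. dpy-3 (adjusted p = 0.0425) was called in 3 of 11 alternatives. It lost its call in each fit without a replicate (log2 fold change -2.39 to -1.47, adjusted p 0.0611 to 0.135), without the ribosomal RNA-rich libraries (-2.00, adjusted p = 0.0654), with upper-quartile scaling (-1.86, 0.0589), with no scaling factors (-1.80, 0.0850) and in DESeq2 (-1.96, 0.0867). dpy-10 (adjusted p = 0.0185) lost it without replicate 5 (-1.12, 0.211), 6 (-1.65, 0.107) or 8 (-1.70, 0.0540) and in DESeq2 (-1.71, 0.0552). With only genes of a mean of at least 10 CPM, 3 members fell, since dpy-2, dpy-3 and dpy-7 then left the test. Without the ribosomal RNA-rich libraries dpy-17 had -2.79, sqt-3 -2.02, dpy-7 -2.09, dpy-2 -2.01 and dpy-10 -1.64, and these 5 calls held.

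At 2 h against 0 h sqt-3 passed again, falling by 2.52 on the log2 scale (SE 0.38, adjusted p = 6.56e-06), a step in which 3.56% of all genes fell. dpy-2, dpy-3, dpy-7, dpy-10 and dpy-17 were also lower in 4 of 4 replicates without passing. dpy-17 had a log2 fold change of -1.26 (SE 0.46, adjusted p = 0.113) there and passed with the replicate block (log2 fold change -1.37, adjusted p = 0.000893, range over its alternatives 0.000893 to 0.403). At 24 h against 12 h both fell again, sqt-3 by 1.52 (SE 0.41, adjusted p = 0.0111) and dpy-17 by 1.66 (SE 0.51, adjusted p = 0.0291), while 5.29% of all genes did. Both calls were lost without replicate 6 (adjusted p = 0.167 for sqt-3 and 0.227 for dpy-17). That of dpy-17 was also lost without replicate 8 (0.0730) and without the ribosomal RNA-rich libraries (0.0875), where that of sqt-3 held (log2 fold change -1.48, adjusted p = 0.0394).

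The pair did not fall in step. In counts per library, dpy-17 stood at 0.488, 0.746, 0.648 and 0.469 times sqt-3 at -2 h in replicates 1, 5, 6 and 8, at 0.695, 0.230, 0.273 and 0.277 times at 0 h, and at 1.53, 0.804, 1.06 and 1.12 times at 12 h. The ratio was thus higher at 12 h than at 0 h in 4 of 4 replicates, and the values at 12 h do not overlap those at 0 h. These ratios are descriptions without a test.

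No member passed in the remaining 7 steps, in which 1.18% (4 h against 2 h), 0.43% (6 h against 4 h), 2.07% (9 h against 6 h), 0.824% (12 h against 9 h), 3.15% (48 h against 24 h), 4.11% (96 h against 48 h) and 24.7% (288 h against 192 h) of all genes were called in either direction. Among these 70 tests only sqt-3 at 4 h against 2 h had an unadjusted p under 0.05 in edgeR, and DESeq2 called 0. With the replicate block sqt-3 passed at that step (log2 fold change -1.05, adjusted p = 0.0401, range over its alternatives 0.0379 to 0.601), and so it did with no filter (-0.99, 0.0379). In the last step, where 24.7% of genes changed, the log2 fold changes of the members ranged from -0.98 for dpy-5 to 1.81 for dpy-10, and neither was called. By the study's counts most larvae had died by 288 h, so this step also spans a loss of survival.

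The furrow collagens dpy-2, dpy-3, dpy-7 and dpy-10 shared the early fall at lower levels. dpy-10, which is also a common marker for genome editing in worms, had 44.8, 129, 77.8 and 35.3 scaled CPM in replicates 1, 5, 6 and 8 at -2 h, 38.7, 16.7, 22.4 and 11.5 at 0 h, 12.1, 1.68, 4.01 and 2.54 at 12 h and 0.149, 0.249, 0.0818 and 0.469 at 192 h. The times -2 and 0 h overlap through replicates 1 and 8, and all 4 libraries at 192 h lie below those at 12 h. Its counts at 192 h were 2, 3, 1 and 5, so only replicate 8 was above the floor of 3 counts. Replicate 1 was the highest of the 4 for dpy-10 at all 7 time points from 0 to 24 h.

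dpy-2, the neighbour of dpy-10 on chromosome II, had 25.5, 73.2, 36.8 and 19.6 scaled CPM at -2 h in replicates 1, 5, 6 and 8, 15.5, 8.20, 10.2 and 5.31 at 0 h and 4.18, 1.54, 2.81 and 1.79 at 12 h. These 3 times do not overlap. From 24 h on its means lay between 0.645 and 1.18 scaled CPM, and here too replicate 1 was highest at all 7 time points from 0 to 24 h. dpy-7, a standard marker of the epidermis whose protein outlines the furrows, had 39.5, 98.8, 64.1 and 30.6 scaled CPM at -2 h, 21.0, 10.9, 12.98 and 8.15 at 0 h and 2.59, 2.78, 2.47 and 1.79 at 12 h, again without overlap, and its means stayed between 1.99 and 2.81 from 24 h on.

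At -2 h replicate 5 was the highest library for dpy-2, dpy-3, dpy-7, dpy-8 and dpy-10, and for dpy-17, but not for sqt-3, whose 4 values there had an SD of 233 around a mean of 2804 scaled CPM. The labels give no difference between the cultures, and the source of this spread was not tested.

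dpy-3, unlike dpy-2 and dpy-10, kept means of at least 3.28 scaled CPM from 24 h on. It had 22.7, 60.1, 28.5 and 22.2 scaled CPM in replicates 1, 5, 6 and 8 at -2 h, 13.7, 8.33, 6.72 and 6.19 at 0 h and 2.65, 4.10, 0.803 and 1.04 at 12 h. Replicates 1 and 5 had 6.61 and 12.98 at 24 h, 7.11 and 11.6 at 96 h and 3.58 and 12.6 at 288 h, while replicates 6 and 8 had 0.852 and 1.57 at 24 h, 0 and 0.730 at 96 h and 1.60 and 2.27 at 288 h. At each of the 5 time points from 24 to 288 h both of replicates 1 and 5 were above both of 6 and 8, and the mean over those libraries was 6.87 times as high. dpy-8 showed the same split at 5 of these 5 time points (2.12 times as high), dpy-7 at 4 (2.69 times) and rol-6 at 4 (3.50 times), while dpy-2, dpy-10 and dpy-13 did at 1, dpy-5 and sqt-3 at 2 and dpy-17 at 0. This span was chosen after the values were seen, and the split follows replicate number, not time. For dpy-3 it was not confined to the late times, since it also held at each time point from 0 to 12 h, though not at -2 h. The same was true of dpy-5 from 0 to 12 h. At 24 h against 12 h dpy-3 was higher in 4 of 4 replicates with a log2 fold change of 1.38 (SE 0.82, adjusted p = 0.344), which did not pass.

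dpy-8, the remaining furrow collagen, stayed low and was not called in any comparison. Its mean was 3.34 ± 0.640 scaled CPM at -2 h, 1.68 ± 0.725 at 12 h and 2.48 ± 1.37 at 192 h (SD, n = 4 each). It was lower at 0 h than at -2 h in 4 of 4 replicates, by 0.41 on the log2 scale (SE 0.47, adjusted p = 0.593). Per kb of exon its mean at -2 h was 2.21 scaled CPM, against 29.3 to 50.8 for the other furrow collagens.

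**Figure D2:**
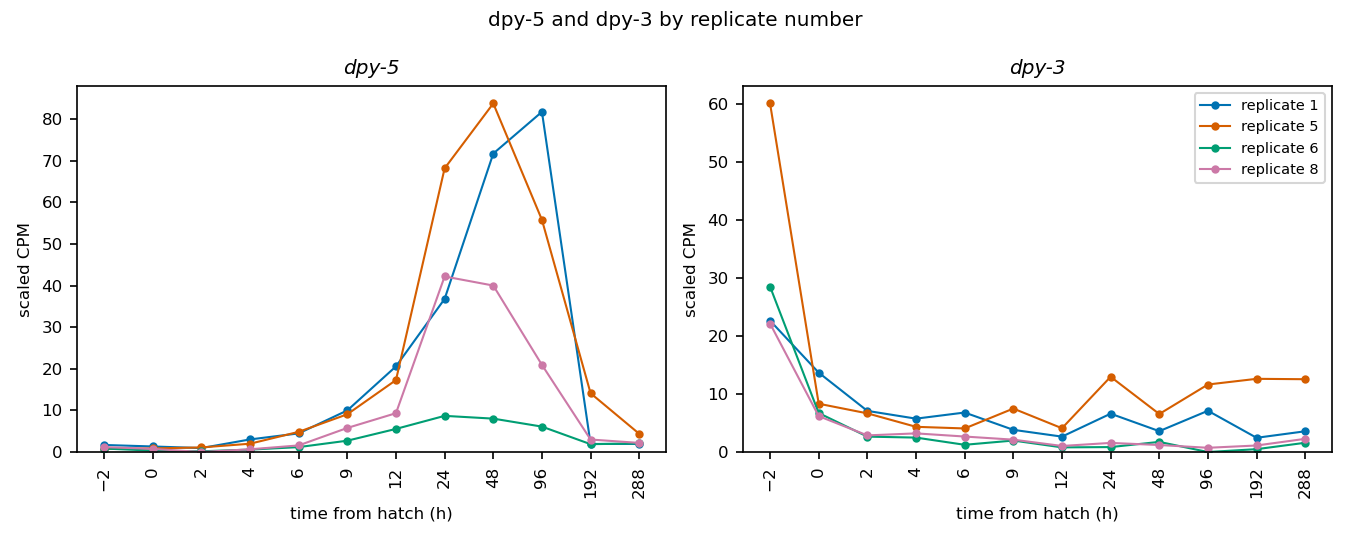
Scaled CPM of dpy-5 (left) and dpy-3 (right) at the 12 time points in hours from the nominal hatch (evenly spaced), with 1 line per replicate number. dpy-5 climbs in all 4 replicates, least in replicate 6, and is low again at 192 h. From 0 h on dpy-3 is higher in replicates 1 and 5 than in 6 and 8.

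dpy-5 took another course from those 6, climbing after the hatch. It had 1.33, 0.864, 0.333 and 0.758 scaled CPM in replicates 1, 5, 6 and 8 at 0 h, 3.02, 1.99, 0.581 and 0.658 at 4 h, 9.99, 9.07, 2.72 and 5.79 at 9 h and 20.6, 17.3, 5.55 and 9.33 at 12 h. At 24 h the values were 36.8, 68.2, 8.69 and 42.2, at 48 h 71.7, 83.7, 8.02 and 39.99, and at 96 h 81.7, 55.8, 6.11 and 20.9. At 192 h they were 1.93, 14.1, 1.88 and 3.002, and at 288 h 1.95, 4.37, 2.08 and 2.19. All 4 libraries at 12 h lie above all 4 at 0 h, and replicate 6 was the lowest at each of the 7 time points from 4 to 96 h. The mean at 48 h was 50.9 ± 34.0 scaled CPM (SD, n = 4), 45.3 times that at -2 h. Per kb of exon dpy-5 had the highest mean of the 10 at 24, 48, 96 and 192 h, with 59.5 scaled CPM at 48 h against 4.92 for dpy-17 and 3.97 for sqt-3. At 192 h its mean per kb was 6.12, against 4.34 for dpy-3, the next highest.

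No single step passed on the way up. At 24 h against 12 h its log2 fold change was 1.56 (SE 0.60, adjusted p = 0.0958), higher in 4 of 4 replicates, and it passed with the replicate block (1.49, adjusted p = 0.000611, range over its alternatives 0.000611 to 0.359), with no filter and without replicate 6. The drop between 96 and 192 h was the only member call in any step after 24 h. At 192 h against 96 h dpy-5 fell by 2.98 on the log2 scale (SE 0.65, adjusted p = 0.000922) in 4 of 4 replicates, while 7.26% of all genes fell. Without replicate 1, which had the largest drop, the fall was 2.13 and did not pass (adjusted p = 0.0693).

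dpy-13 and rol-6 remained low, and rol-6 was near the detection limit of these libraries. For dpy-13, 36 of 48 libraries were above 1 CPM and 2 held 3 or fewer counts. dpy-13, the annulus collagen, had means from 1.07 ± 1.19 at 192 h to 2.42 ± 0.783 at 9 h (SD, n = 4 each, in scaled CPM). From 96 h on replicate 5 held 2.82 to 3.13 scaled CPM, and the other 3 replicates between 0.160 and 1.57. rol-6 had at most 31 counts in any library, 3 or fewer in 12 of 48 and 0 in 4, and its means lay between 0.265 and 1.17 scaled CPM. Its levels do not allow a direction to be read.

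Over the 12 h from the nominal hatch, the question was how each collagen's level had changed by 12 h against 0 h. By the study's counts many larvae hatched after 0 h, so this span covers hatching as well as arrest. 6 members fell and dpy-5 rose, against 23.3% of all genes that fell and 22.2% that rose. sqt-3 averaged 28.2 ± 14.0 scaled CPM at 12 h and 702 ± 259 at 0 h (SD, n = 4 each), a log2 fold change of -4.63 (SE 0.42, adjusted p = 1.11e-12). dpy-17 averaged 34.3 ± 24.3 at 12 h and 236 ± 93.3 at 0 h, a log2 fold change of -2.78 (SE 0.49, adjusted p = 6.06e-06). The 4 furrow collagens that fell had log2 fold changes from -2.45 (dpy-7, SE 0.52) to -1.91 (dpy-2, SE 0.49). dpy-5 averaged 13.2 ± 6.94 at 12 h and 0.822 ± 0.411 at 0 h, a log2 fold change of 4.00 (SE 0.80, adjusted p = 4.70e-05). All 7 moved the same way in 4 of 4 replicates. The median log2 fold change was -2.02 over the 5 furrow collagens, against -0.02 over all genes. The other 5 ran from -4.63 (sqt-3) to 4.00 (dpy-5). Their median of -1.14 is the value of rol-6, which was not called and whose counts are too low to read, so it does not summarise them. dpy-3 (adjusted p = 0.0344) lost its call without replicate 1, 6 or 8 (adjusted p 0.0589 to 0.164).

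Over the later span, 192 h against 24 h, dpy-5 and dpy-10 fell and 0 rose in edgeR. At an unadjusted p under 0.05 and in DESeq2, 3 fell, dpy-17 being added, and 0 rose. In this span 20.3% of all genes fell and 19.4% rose. dpy-5 averaged 5.23 ± 5.95 scaled CPM at 192 h and 39.0 ± 24.4 at 24 h (SD, n = 4 each), a log2 fold change of -2.90 (SE 0.65, adjusted p = 0.000293), lower in 4 of 4 replicates. dpy-10 averaged 0.237 ± 0.169 at 192 h and 2.08 ± 2.23 at 24 h, a log2 fold change of -3.13 (SE 1.13, adjusted p = 0.0238) that rests on 1 to 5 counts per library at 192 h. It lost its call without replicate 1 or 6 (adjusted p = 0.174 and 0.0853), which leaves 1 member called. Without the ribosomal RNA-rich libraries the values were -2.86 for dpy-5 and -3.27 for dpy-10, and both calls held. dpy-17 was lower in 4 of 4 replicates with a log2 fold change of -1.32 (SE 0.59, adjusted p = 0.0702). With the replicate block 4 members passed, dpy-17 (-1.25, adjusted p = 0.0111, range over its alternatives 0.00743 to 0.194) and dpy-13 (-1.28, adjusted p = 0.0248, range 0.00422 to 0.526) being added. The shares of all genes given above are from the fit without the block, so they are no background for this count.

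**Figure D3:**
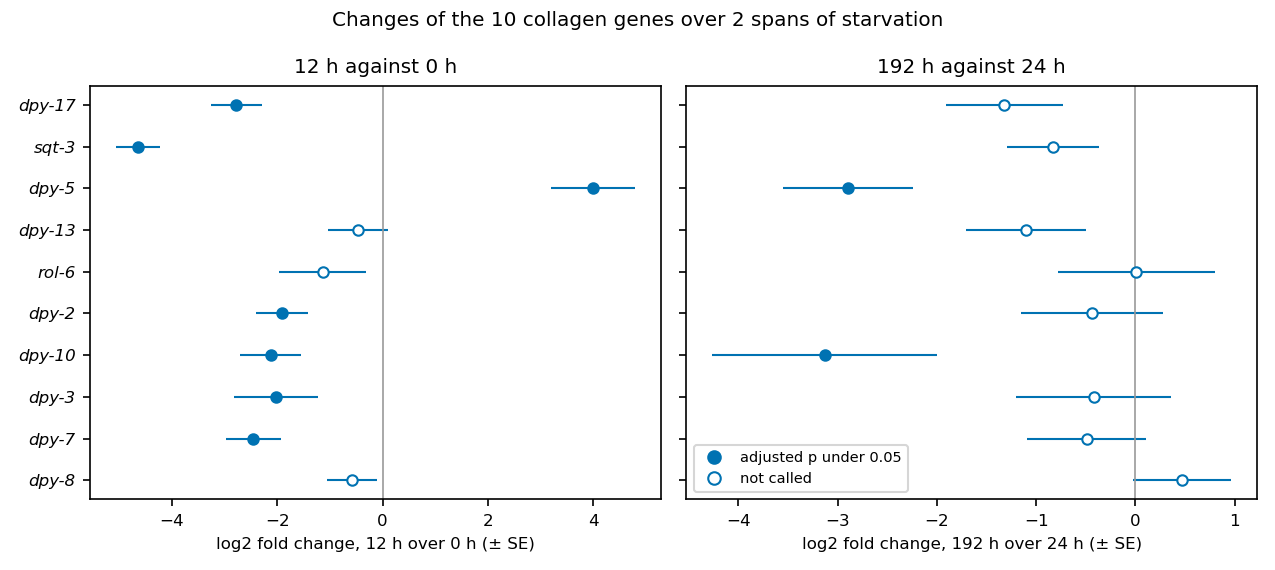
Log2 fold change of each of the 10 collagens at 12 h over 0 h (left) and at 192 h over 24 h (right), with bars of 1 standard error from edgeR's quasi-likelihood fit; filled points passed the adjusted p threshold of 0.05. On the left 6 filled points lie below 0 and dpy-5 lies at 4.00; on the right only dpy-5 and dpy-10 are filled.

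Across the 48 libraries dpy-2, dpy-10, dpy-17 and sqt-3 varied together most closely. Pearson's r of log2(scaled CPM + 1) was 0.98 for dpy-10 with dpy-17, 0.98 for dpy-17 with sqt-3 and 0.96 for dpy-2 with dpy-10. dpy-7 had 0.92 with dpy-2, while dpy-3 had 0.70 with dpy-2, 0.62 with dpy-10, 0.62 with dpy-17 and 0.63 with sqt-3, and its highest value was 0.86 with dpy-7. These values, like those that follow, describe libraries that share time points and cultures and carry no test. Among genes with a symbol and a mean of at least 5 scaled CPM, dpy-17 was most like dpy-14 (r = 0.995), a further cuticle collagen, and dex-1 (0.988). sqt-3 was most like the collagen col-74 (0.992) and mtre-1 (0.992). For dpy-2 the nearest were lpr-5 (0.978) and lpr-4 (0.967), and for dpy-10 lpr-6 (0.981) and noah-1 (0.980). The lpr genes encode lipocalin-related proteins and noah-1 a zona pellucida domain protein of the apical matrix.

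dpy-7 was nearest to ptr-25 (r = 0.957), a patched-related gene, and the collagen col-121 (0.951), and dpy-3 to wrt-6 (0.924) and wrt-9 (0.890), both of the warthog family of hedgehog-related proteins. dpy-5 was nearest to ech-7 (0.891) and ctn-1 (0.847), neither of which is a collagen. For the 3 low members the best values were weak, at 0.66 for dpy-8, 0.63 for dpy-13 and 0.59 for rol-6.

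The other cuticle genes were taken from a list of 40, of which 37 passed the filter (sqt-2, bli-2 and cut-1 did not). At 12 h against 0 h 23 of these fell, 2 rose and 12 did not pass, while 23.3% of all genes fell and 22.2% rose, with a median log2 fold change of -0.80, against -0.02 over all genes. By role, of 10 other matrix proteins 9 fell, of 12 genes for collagen processing and crosslinking 10 fell and 2 rose, of 8 transcriptional regulators 3 fell, and of 7 other collagens dpy-14 alone fell. The 6 collagens not called had low means over all libraries, from 0.604 (rol-8) to 4.22 (dpy-4) scaled CPM, against 128 for dpy-14. Their missing calls therefore do not show that their levels held steady. cut-2 and cut-3, cuticlin genes, fell by 5.49 and 5.32 on the log2 scale (SE 0.38 and 0.42, adjusted p = 5.14e-16 and 2.66e-14), and dpy-14 fell by 2.91 (SE 0.52, adjusted p = 9.37e-06). cut-2 averaged 21.5 ± 7.40 scaled CPM at 12 h and 969 ± 512 at 0 h (SD, n = 4 each). nas-6, an astacin protease gene, rose by 0.82 (SE 0.19, adjusted p = 0.000292), and dpy-11, a thioredoxin-like gene needed for body shape, by 0.38 (SE 0.11, adjusted p = 0.00518).

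The gene for DPY-31, the protease that acts on SQT-3, fell much less than the collagen. dpy-31 changed by -0.55 on the log2 scale at 12 h against 0 h (SE 0.11, adjusted p = 7.58e-05). Likewise dpy-18, phy-2 and pdi-2, which encode subunits of the prolyl 4-hydroxylase that modifies collagens, changed by -0.72 (SE 0.18), -1.37 (SE 0.21) and -0.70 (SE 0.12), each with a call. The difference between these values and those of the collagens was not tested.

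At 192 h against 24 h 10 of the 37 fell, 2 rose and 25 did not pass, while 20.3% of all genes fell and 19.4% rose, with a median of -0.39, against -0.05 over all genes. The 2 rises were in hydroxylase subunits, while the third such gene, phy-2, fell by 0.86 (SE 0.22, adjusted p = 0.00156) in 4 of 4 replicates. pdi-2, also a general protein disulfide isomerase, averaged 820 ± 56.1 scaled CPM at 192 h and 316 ± 40.6 at 24 h (SD, n = 4 each), a log2 fold change of 1.37 (SE 0.13, adjusted p = 1.89e-12), and dpy-18 rose by 0.65 (SE 0.19, adjusted p = 0.00468), higher in 3 of 4 replicates. blmp-1, which encodes a zinc finger regulator of molting-cycle genes, fell by 2.26 (SE 0.24, adjusted p = 1.23e-10), the astacin gene nas-7 by 1.27 (SE 0.28, adjusted p = 0.000195) and cut-6 by 1.16 (SE 0.44, adjusted p = 0.0296). Of the 8 regulators 5 fell, among them elt-3, which is also one of the epidermal markers. Of the 7 other collagens 0 passed in edgeR in this span, 1 had an unadjusted p under 0.05, and DESeq2 called 0. All 7 were low here, since dpy-14 too averaged only 2.46 scaled CPM at 192 h and 6.19 at 24 h.

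**Figure D4:**
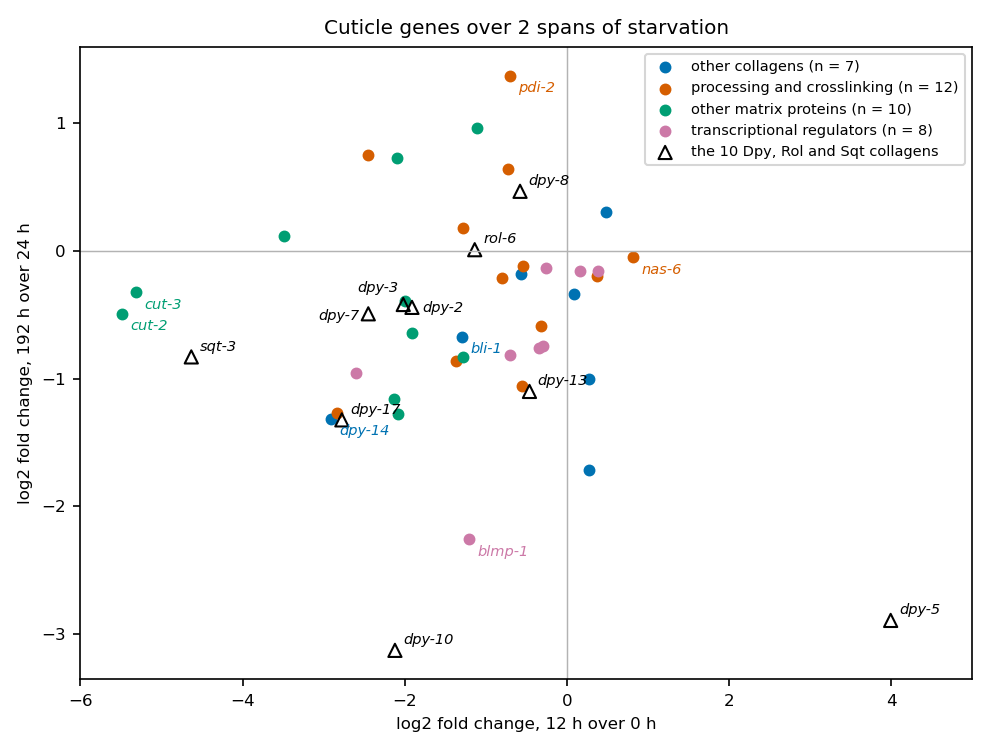
Log2 fold change at 192 h over 24 h against that at 12 h over 0 h, with 1 dot for each of the 37 other cuticle genes tested, coloured by role, and an open triangle for each of the 10 collagens. Most genes lie left of 0, cut-2, cut-3 and sqt-3 lie farthest left, dpy-5 lies alone at the lower right, and pdi-2 is the highest point.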

How the data were processed

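The deposited values are raw counts of reads per gene, with 1 table for each of the 48 libraries. The authors mapped single-end mRNA-seq reads with Bowtie and counted them with HTSeq on the WS210 genome. Versions and the strand setting are not given in the sources used here. Entries for reads without a gene took a mean of 24.8% of each table (21.1 to 29.7%) and were left out. Gene names and exon lengths came from RefSeq and Ensembl (WBcel235), joined by sequence name.

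Genes with over 1 CPM in at least 4 libraries were tested (16987 of 44968) with edgeR 4.0.16 in R 4.3.3 and TMM scaling: a likelihood ratio test over the 12 time points, and quasi-likelihood tests over 11 steps and 2 wider spans, fitted on all 48 libraries, with Benjamini-Hochberg adjustment over all genes and a threshold of 0.05. The standard error is the log2 fold change divided by the root of F. The fits were tested on simulated data. Alternatives used DESeq2 1.42.0, other scalings and filters, a replicate block, and sets without a replicate or without the ribosomal RNA-rich libraries.

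The members and gene lists were chosen with earlier results of these data known. All 10 members are named. Of the other cuticle genes, the 3 largest rises and 3 largest falls per span were named where the adjusted p passed, the mean was at least 10 CPM and 4 of 4 replicates moved the same way, besides dpy-18, dpy-31 and phy-2, named for their role after their values were seen. For likeness, the 2 genes with the highest r per member were taken.

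Replicate numbers pair libraries because, per the study's methods, every replicate came from a single culture over time, except for 1 whose number is not given. With time point means subtracted, libraries sharing a number had a median r of 0.212, against -0.08 for other pairs at different times, and 45 of 48 lay closest to their own number. Libraries of one culture are repeat samples of it. Without molecular identifiers, the floor of 3 counts per library covers counting error only.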

Additional observations from a re-analysis of the deposited data

Results flagged for a closer look

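Among 120 groups of 4 libraries (10 collagens at 12 time points), 10 held a library far from the other 3 by Dixon's criterion at the 95% level, and all 10 were high. The criterion flags about 1 in 20 groups of independent, normally distributed values. Here the values were not on a log scale, which favours high flags, and the groups share cultures. That rate therefore cannot tell whether 10 flags are an excess. Of the 10, 4 were replicate 1 and 6 were replicate 5, with 0 from replicates 6 and 8. Replicate 1 stood high at 5.12 scaled CPM for dpy-2 at 6 h (next 1.84), 9.96 for dpy-7 at 4 h (next 3.32), 5.401 for dpy-10 at 24 h (next 1.33) and 20.0 for dpy-17 at 24 h (next 8.6). Replicate 5 stood high at 60.1 scaled CPM for dpy-3 at -2 h (next 28.5), 12.6 for dpy-3 at 192 h (next 2.45), 14.1 for dpy-5 at 192 h (next 3.002) and 4.37 for dpy-5 at 288 h (next 2.19), 2.13 for dpy-2 at 96 h (next 0.325) and 3.13 for dpy-13 at 96 h (next 0.811). A cause was not tested.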

How the results depend on the processing

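With only genes of a mean of at least 10 CPM, 4 members remained in the test, so 4 were called over the 12 time points and 4 at 12 h against 0 h, in place of 7 each, and 3 fell at 0 h against -2 h, in place of 6. At 192 h against 24 h, in place of 2, the replicate block called 4 members and the fits without a replicate 1 to 3. The block called 9 members over the 12 time points and 13 of the member tests over the steps, and changed no other member call than those given above; it called 27 other cuticle genes at 12 h against 0 h and 13 at 192 h against 24 h, in place of 25 and 12. The members that fell at 2 h against 0 h were 2, in place of 1, with no filter and with the replicate block, and 1 to 2 in the fits without a replicate. Those that fell at 24 h against 12 h, in place of 2, were 0 to 2 in the fits without a replicate and 1 without the ribosomal RNA-rich libraries. At 192 h against 96 h 0 to 1 fell in the fits without a replicate, in place of 1. At 4 h against 2 h 1 member, sqt-3, fell with no filter and with the replicate block, in place of 0. Apart from these, the alternatives kept the counts of called members and other cuticle genes within 1.5 times. Of 343 single-member values recomputed, 308 kept direction and side of the threshold, 22 lost and 7 gained a call. The other 6 were the rol-6 log2 fold change at 192 h against 24 h (0.01), which became -0.00985 with upper-quartile scaling, -0.0696 with no scaling factors, -0.0118 with no filter, -0.0384 with the replicate block, -0.0411 to 0.453 in the fits without a replicate and -0.226 without the ribosomal RNA-rich libraries. Leaving out scaling factors shifted the all-gene median by -0.12 at 12 h against 0 h, 0.14 at 0 h against -2 h and -0.22 at 24 h against 12 h. Depth limits dpy-13, rol-6 and the late levels of dpy-2 and dpy-10, where most libraries held few counts.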
